A study of Mus musculus with 24 samples.

Results

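The collagen IV, VI, XV and XVIII genes Col4a1, Col4a2, Col6a1, Col6a2, Col6a3, Col15a1 and Col18a1 are 7 of 22359 protein-coding genes in the mm9 annotation. They were chosen by name, as collagens of the basement membrane and of its border with the stroma, and each was read over its body with 10 kb on each side. The study performed ChIP-seq on immortalised mouse fibroblasts to ask how the transcription factor PRRX1 shapes their chromatin. The cells were of 3 kinds. MEF were fibroblasts of mouse embryos, MMTV-CAF came from MMTV-PyMT mammary tumours as cancer-associated fibroblasts, and Wound fibroblasts were taken from the healing dorsal skin on day 10. The 17 lists analysed held 7 of acetylated H3K27 (H3K27ac), 7 of trimethylated H3K4 (H3K4me3) and 3 of PRRX1. With 1 library per group there was no replicate spread and no test, so all differences below compare 2 lists, not 2 conditions.

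Every culture carried HPV E6/E7 for immortalisation. WT marks the control cells, which the labels describe as treated with the control guide sgNS. For MEF they also mention WT embryos, without saying which of the 2 the MEF WT library was. SG marks cells in which Prrx1 had been deleted with CRISPR/Cas9 and an sgRNA. KI, found only in MEF, was read as the Prrx1 mutant line, in which lacZ sits in the homeodomain. Its strain is given as C57BL/6, and its line name carries 129S. MEF came from embryos at E10-13. MEF and Wound cells were C57BL/6 and MMTV-CAF were FVB/NJ, so that fibroblast type, origin and, for MMTV-CAF, strain cannot be told apart. The study's methods give the age of its mice as a range of months for the whole work, and none is given here for a single sample. Numbers of animals per culture, and whether a culture was 1 clone, were not found in the sources used here. PRRX1 was listed in WT cells only, so binding in SG and KI cells could not be read. MEF KI and MEF SG were both set against the same MEF WT list. These were bulk cultures, in which a weaker mark per cell and fewer marked cells cannot be told apart.

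Collagen IV forms the network that gives basement membranes their sheet structure, and its commonest molecule is built from the chains of Col4a1 and Col4a2, which lie head to head. Collagen VI, built from the chains of Col6a1, Col6a2 and Col6a3, forms beaded microfilaments that connect basement membranes with the interstitial matrix, and fibroblasts are its main source. Collagens XV and XVIII are multiplexins, proteoglycans of the basement membrane zone whose C-terminal fragments include endostatin. H3K4me3 marks promoters in use, H3K27ac marks active promoters and enhancers, and PRRX1 is a paired-related homeodomain protein of mesenchymal cells. Homeodomains of this class bind words around TAATTA.

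H3K4me3 at marker genes was mainly that of fibroblasts. Of 10 fibroblast marker genes, 6 to 10 had an H3K4me3 region over a start site in each list, against 0 or 1 of 8 epithelial (Cdh1), 0 or 1 of 6 endothelial (Kdr), 1 or 2 of 5 pericyte and smooth muscle (Cspg4, Kcnj8) and 0 of 5 immune markers. In both Wound lists the Kdr region was over 4 kb wide, and no region lay over a start of the fibroblast markers Col3a1 and Dcn. H3K27ac summits in the wider windows were less selective, with 9 or 10 fibroblast, 3 to 5 epithelial, 2 to 4 endothelial, 2 pericyte and smooth muscle and 1 or 2 immune markers per list. Lists differed in size, from 29325 (MEF KI) to 61603 (MMTV-CAF SG) H3K27ac summits and from 13125 (MEF KI) to 29166 (MMTV-CAF SG) H3K4me3 regions, with 3048 (MEF), 8000 (MMTV-CAF) and 5698 (Wound) PRRX1 summits. The sequencing depth behind the lists is unknown. Every ratio between lists was therefore set relative to the median gene, whose own log2 shift in H3K27ac ran from -1.62 (MEF KI against WT) to 0.91 (MMTV-CAF WT against Wound WT), and in H3K4me3 width from -0.32 to 0.46 in the same pairs.

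PRRX1 summits lay at 3 of the 7 genes. They are shown first by sequence, 6 of the 22 summits over the 3 lists (a summit counted once in each list), each as 101 bases around the summit on the forward strand of mm9 (NCBIM37). The set holds both MEF summits, the strongest MMTV-CAF summit at each of Col4a1, Col4a2 and Col6a1, and the Wound summit at the Col4 promoter. Capitals mark the words TAATTA and TGANTCA (N any base, the AP-1 word), which read alike on both strands. Overlapping copies were counted.
MEF, Col4a1 intron near the start, chr8:11306794-11306894: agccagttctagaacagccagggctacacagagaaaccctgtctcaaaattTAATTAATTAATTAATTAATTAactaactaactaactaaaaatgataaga
MEF, Col4a1 intron further in, chr8:11283139-11283239: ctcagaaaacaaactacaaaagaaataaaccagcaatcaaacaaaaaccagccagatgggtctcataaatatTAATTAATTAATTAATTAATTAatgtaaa
MMTV-CAF, Col4a1 intron, chr8:11273512-11273612: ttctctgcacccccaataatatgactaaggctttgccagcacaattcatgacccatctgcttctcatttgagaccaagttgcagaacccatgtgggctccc
MMTV-CAF, Col4a2 intron, chr8:11394305-11394405: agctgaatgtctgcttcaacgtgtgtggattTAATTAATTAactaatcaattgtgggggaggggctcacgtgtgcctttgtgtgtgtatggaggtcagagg
MMTV-CAF, upstream of Col6a1, chr10:76197728-76197828: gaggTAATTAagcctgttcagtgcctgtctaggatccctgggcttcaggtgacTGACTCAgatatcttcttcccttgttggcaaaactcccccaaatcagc
Wound, Col4a1 intron at the shared promoter, chr8:11312198-11312298: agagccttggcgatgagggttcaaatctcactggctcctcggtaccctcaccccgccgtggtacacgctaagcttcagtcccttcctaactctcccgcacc

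Both MEF sequences held a run of 5 overlapping copies of TAATTA. The strongest MMTV-CAF site at Col4a2 held 2 copies, the site upstream of Col6a1 held TAATTA beside TGACTCA, and the other 2 held neither word in the bases shown. Within 100 bp of the summit, TAATTA was found at 2 of 2 member summits in MEF, 4 of 10 in MMTV-CAF and 3 of 10 in Wound, against 69.1%, 35.4% and 41.9% of all PRRX1 summits in those lists. A run of 5 or more copies stood at 28% of all MEF summits, 1.46% of MMTV-CAF and 13.8% of Wound summits, so that such a run was common in the MEF list and not particular to Col4a1. TGANTCA was found at 0 of 2, 1 of 10 and 0 of 10 member summits, against 12.9%, 18.2% and 13.0% of all summits.

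At the collagen IV pair, PRRX1 summits were listed in all 3 fibroblast types, but no site was listed in all 3. Col4a1 (ENSMUSG00000031502.9) occupies chromosome 8 between 11198423 and 11312826 (minus strand), and Col4a2 (ENSMUSG00000031503.7) between 11312805 and 11449287 (plus strand). Their 5' ends overlap by 22 bp, so that their windows share 20.022 kb and the pair is not independent. MEF held 2 summits, with −log10 p of 22.0 (rank 205 of the list) at 5.98 kb and 13.8 (rank 635) at 29.6 kb into Col4a1. Both lay in introns, away from any H3K27ac summit within 500 bp in all 7 lists and outside every H3K4me3 region. Wound fibroblasts had summits at the same 2 places, with −log10 p of 6.32 and 18.7, the latter at rank 186 of its list. MMTV-CAF had none there.

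MMTV-CAF and Wound fibroblasts shared 3 other sites that MEF lacked. At 53.0 kb into Col4a1 the −log10 p was 11.2 in MMTV-CAF and 5.29 in Wound, at 39.3 kb it was 17.1 and 6.71, and in Col4a2 at 72.9 kb it was 5.30 and 5.39. The remaining summits were listed in 1 type. In MMTV-CAF they were Col4a1 at 50.3 kb and Col4a2 at 80.0, 80.5, 81.5, 99.3 and 109.6 kb, of which the summit at 81.5 kb was the strongest, with a −log10 p of 14.4 (rank 677). In Wound they were Col4a1 at 41.1 kb and at 0.578 kb, inside the shared promoter, and Col4a2 at 71.7 kb and beyond its 3' end. The promoter summit was weak, with a −log10 p of 4.50 (rank 4655 of 5698).

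At least 1 PRRX1 summit lay in the window of 2 of 7 members in MEF, 3 of 7 in MMTV-CAF and 3 of 7 in Wound, against 7.04%, 22.1% and 16.8% of all genes. The members in question were Col4a1 and Col4a2 in every type and also Col6a1 in MMTV-CAF and Wound. In MEF the only summit of Col4a2 was the Col4a1 intron summit at 5.98 kb, reached through the flank and counted for both genes. Long genes collect more summits. Among 3065 genes with windows of 100 kb or more, 22.3%, 39.7% and 31.7% had a summit. As many summits as Col4a1, which had 2, 3 and 6, were found at 5.91%, 9.46% and 0.685% of these long genes, and as many as Col4a2, with 1, 6 and 5, at 22.3%, 1.96% and 1.14%. No PRRX1 summit was listed at Col6a2, Col6a3, Col15a1 or Col18a1 in any type. At Col6a1 the MMTV-CAF summit lay upstream at -8.87 kb with a −log10 p of 10.9, and the Wound summit at -7.25 kb with 6.32.

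PRRX1 and H3K27ac met at 7 of the 10 MMTV-CAF member summits and 2 of the 10 Wound summits, within 500 bp in the same WT cells, and at 0 of 2 in MEF. Over all PRRX1 summits the shares were 45.4%, 33.2% and 20.5%. Of all MEF summits with a run of 5 or more copies of TAATTA, as at both MEF member summits, 1.17% had H3K27ac. The PRRX1 lists reach below a −log10 p of 5, and of PRRX1 summits at or above it, where the H3K27ac lists begin, 3 of 6 MMTV-CAF and 1 of 9 Wound member summits had H3K27ac. All 7 MMTV-CAF and both Wound places still carried an H3K27ac summit in SG cells, against 72.9% of 3633 and 74.1% of 1890 such PRRX1 summits in the whole lists. In MMTV-CAF the H3K27ac −log10 p at the Col4a1 site at 53.0 kb was 38.4 in WT and 38.7 in SG, and at the Col4a2 site at 80.5 kb it was 50.7 and 63.7. Upstream of Col6a1 it was 10.6 and 9.59. In Wound fibroblasts it was 68.9 and 46.7 at the Col4 promoter and 14.6 and 35.3 at 53.0 kb into Col4a1. Each value is the highest within 500 bp of the PRRX1 summit and need not be the same H3K27ac summit in both lists.

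**Figure D1:**
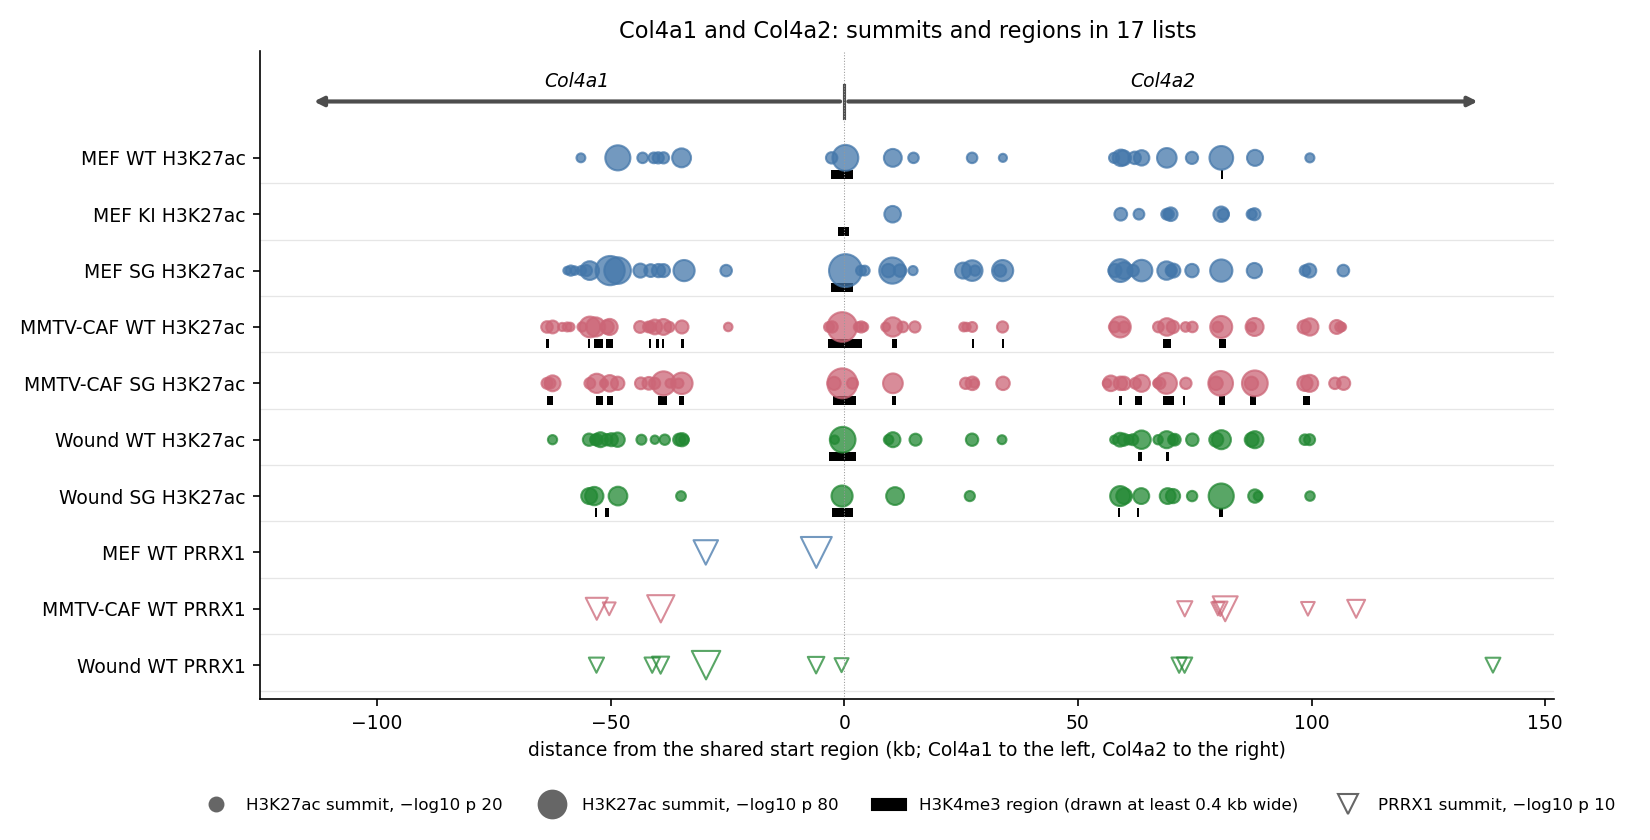
Summits and regions along Col4a1 (left, read leftwards) and Col4a2 (right, read rightwards) in the 17 lists, as distance in kb from the shared start region. Circles are H3K27ac summits and open triangles PRRX1 summits, with the area growing with −log10 p, and black bars are H3K4me3 regions. The Col4a1 side of the MEF KI row holds 0 H3K27ac summits against 9 in the MEF WT window, while the Col4a2 window of MEF KI holds 10.

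A single H3K4me3 region covered the start of both collagen IV genes in all 7 lists. It spanned 4742 bp in MEF WT, 2443 bp in MEF KI, 4704 bp in MEF SG, 7245 bp in MMTV-CAF WT, 4973 bp in MMTV-CAF SG, 5664 bp in Wound WT and 4652 bp in Wound SG. Its fold enrichment over input was 4.99, 2.48, 5.79, 10.3, 15.2, 9.96 and 10.6 in the same order. The region exceeded 4 kb, the width called broad here, everywhere except in MEF KI. In MEF WT and Wound WT it stood at the 95.2 and 97.9 percentile of width among genes with a region. Folds are given within a list and are not levels that can be set against each other across lists.

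Inside the gene bodies, further H3K4me3 regions away from any annotated start numbered 8 and 5 at Col4a1 in WT and SG MMTV-CAF and 2 in Wound SG, and 0 in the other 4 lists. At Col4a2 they numbered 1 in MEF WT, 5 and 8 in WT and SG MMTV-CAF, 2 and 3 in Wound WT and SG, and 0 in MEF KI and MEF SG. The MMTV-CAF H3K4me3 lists were also the longest, and how much list length adds to these counts was not tested. The widest such region at Col4a1, 1876 bp in MMTV-CAF SG, spanned the place of the PRRX1 summit at 39.3 kb. In MMTV-CAF WT this place was not covered.

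Col4a1 had 9, 0 and 18 H3K27ac summits in WT, KI and SG MEF, 25 and 18 in WT and SG MMTV-CAF, and 17 and 5 in Wound WT and SG. Their summed −log10 p, called the summed score below, was 246, 0 and 534 in WT, KI and SG MEF, 473 and 452 in WT and SG MMTV-CAF, and 283 and 155 in Wound WT and SG. The MEF KI list was thus the only 1 of 7 without a summit at Col4a1, and Wound SG was the lowest of the other 6. Beside the shared promoter H3K27ac lay at separate places on its 2 sides. The place 0.279 kb inside Col4a2 was listed in MEF WT (−log10 p 70.1) and MEF SG (113) and in no other list, and the place 0.413 kb inside Col4a1 was listed in the MMTV-CAF pair (92.0 and 93.9) and in Wound (68.9 and 46.7) and in no MEF list. MEF KI had neither, although the 2443 bp H3K4me3 region lay over that start.

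Col4a2 had 16, 10 and 26 H3K27ac summits in WT, KI and SG MEF, 31 and 26 in WT and SG MMTV-CAF, and 24 and 13 in Wound WT and SG. The summed score was 402, 164, 771, 604, 678, 463 and 346 in that order. It was among the highest genes of every list, between the 98.4 percentile (MEF KI) and the 99.8 percentile (Wound WT) of genes with a summit, a rank by the raw sum that is not corrected for its long window of 156 kb. Merging summits within 500 bp gave 62 H3K27ac places over the pair, of which 5 were found in all 7 lists, in Col4a2 introns at 10.3, 59.1, 69.0, 80.7 and 87.9 kb from its start. No place in the Col4a1 window could be among them, since MEF KI listed no summit there. Over all 7 members 9 of 115 places (7.83%) were in all 7 lists, against 12.51% of 74643 places over all genes. The place at 80.7 kb had a −log10 p of 58.8, 24.9 and 51.9 in WT, KI and SG MEF, 50.7 and 63.7 in the MMTV-CAF pair, and 38.0 and 66.3 in Wound.

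**Figure D2:**
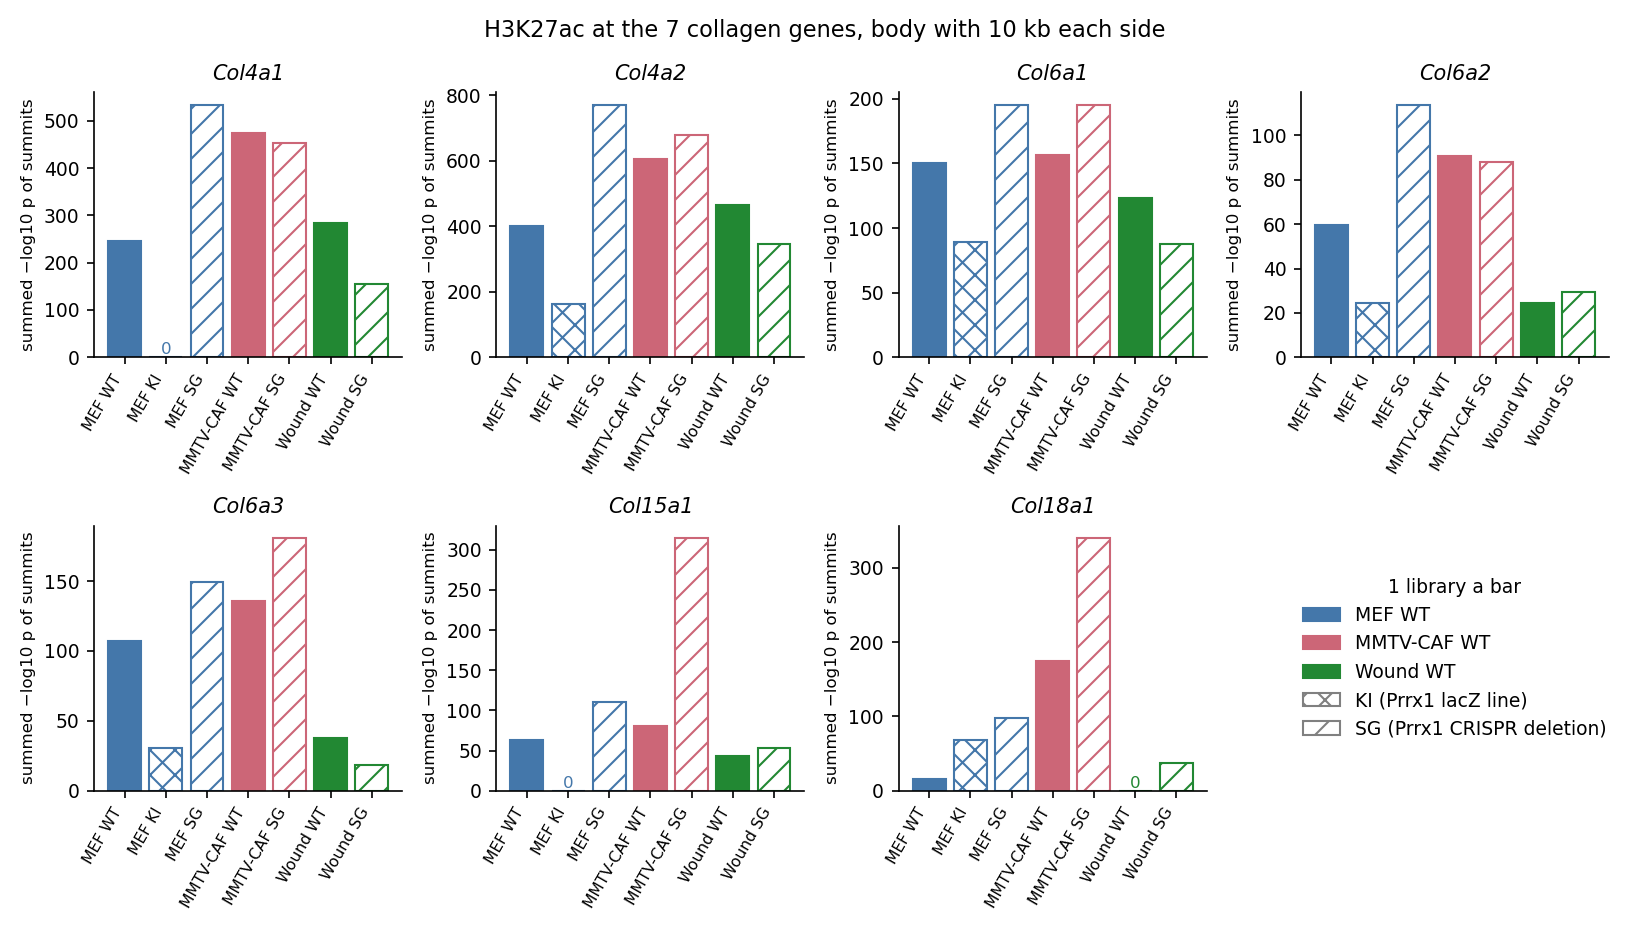
Summed −log10 p of H3K27ac summits (vertical axis, each panel with its own range from 0) in the window of each of the 7 genes, 1 bar per library, with colour for fibroblast type and hatching for genotype. Col4a1 and Col15a1 are at 0 in MEF KI and Col18a1 is at 0 in Wound WT, while Col15a1 (314) and Col18a1 (339.8) are highest in MMTV-CAF SG.

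The collagen VI genes were marked in every list. Col6a1 (ENSMUSG00000001119.6, chromosome 10, minus strand, 76171537 to 76188913), which encodes a chain of the collagen VI heterotrimer, had 5, 5 and 6 summits of H3K27ac in WT, KI and SG MEF, 5 and 6 in WT and SG MMTV-CAF, and 8 and 4 in Wound WT and SG. Its summed score was 151, 89.0 and 196 over WT, KI and SG MEF, 156 and 195 in the MMTV-CAF pair, and 123 and 87.6 in Wound. The lists overlapped by type, with MEF KI and Wound SG lowest. Of its 7 H3K27ac places, 2 were found in all 7 lists, 1 just inside the start at 0.314 kb and 1 upstream at -6.50 kb. The Wound PRRX1 summit fell inside the merged span of the upstream place, but no Wound WT H3K27ac summit lay within 500 bp of it.

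Col6a2 (ENSMUSG00000020241.7, chromosome 10, minus strand, 76058507 to 76086375) encodes another chain of the trimer and lies downstream of Col6a1 on the same strand. It had 1 to 3 H3K27ac summits per list, with a summed score of 59.6, 24.5 and 114 in WT, KI and SG MEF, 90.8 and 88.01 in WT and SG MMTV-CAF, and 24.4 and 29.4 in Wound WT and SG. Both Wound lists were at the level of MEF KI and below all others. The place at 0.389 kb, in an intron beside the start, was found in all 7 lists. With no more than 2 summits in any list but MEF KI, Col6a2 met the minimum of 3 summits for a ratio only in MEF KI against WT.

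Col6a3 (ENSMUSG00000048126.9, chromosome 1, minus strand, 92663435 to 92740529) encodes the longest collagen VI chain. Its H3K27ac summits numbered 5, 3 and 7 in WT, KI and SG MEF, 6 in each MMTV-CAF list, and 4 and 1 in Wound WT and SG. The summed score was 107, 30.3 and 149 in WT, KI and SG MEF, 135 and 181 in WT and SG MMTV-CAF, and 37.8 and 18.5 in Wound WT and SG. Wound SG was the lowest of the 7 lists. Its only summit, with a −log10 p of 18.5, lay at the intronic place 5.47 kb from the start that was found in all 7 lists, and the place beside the start at 0.665 kb, present in the other 6 lists, was absent.

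H3K4me3 at the collagen VI starts was widest in MMTV-CAF WT at all 3 genes, and the other lists kept no common order. Over the Col6a1 start it spanned 1979 and 1529 bp in MEF WT and SG, 4053 and 2687 bp in WT and SG MMTV-CAF, and 2232 and 1965 bp in Wound WT and SG. In MEF KI no region covered a start, but 1 of 1830 bp began 28 bp from the nearest start. Over Col6a2 it spanned 1924, 1734 and 1204 bp in WT, KI and SG MEF, 3474 and 1902 bp in the MMTV-CAF pair, and 1945 and 2069 bp in Wound. At Col6a2 the MMTV-CAF SG region was narrower than in MEF WT and in both Wound lists. Over Col6a3 it spanned 2125, 1654 and 1835 bp in WT, KI and SG MEF, 6441 and 6205 bp in WT and SG MMTV-CAF, and 3060 bp in Wound WT. In Wound SG no region covered the Col6a3 start, and the nearest, of 343 bp, lay 5.06 kb away. Median widths over all genes were 2250, 1863 and 2101.5 bp in WT, KI and SG MEF, 3044 and 2865 bp in the MMTV-CAF pair, and 2079 and 2372 bp in Wound.

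Fold enrichment at these starts did not always follow width. At Col6a1 the fold over input was 6.47 in MEF WT, 5.85 in MEF SG, 9.97 and 9.26 in WT and SG MMTV-CAF, and 8.86 and 6.84 in Wound WT and SG. At Col6a2 it was 4.41, 3.08 and 5.33 in WT, KI and SG MEF, 8.96 and 9.23 in the MMTV-CAF pair, and 6.36 and 5.74 in Wound. At Col6a3 it was 5.31, 3.33 and 4.71 in WT, KI and SG MEF, 6.23 and 7.82 in the MMTV-CAF pair, and 3.93 in Wound WT. The broad Col6a3 regions of MMTV-CAF were therefore of low fold within their lists, at the 10.8 and 15.8 percentile, and wide, at the 93.0 and 94.3 percentile.

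**Figure D3:**
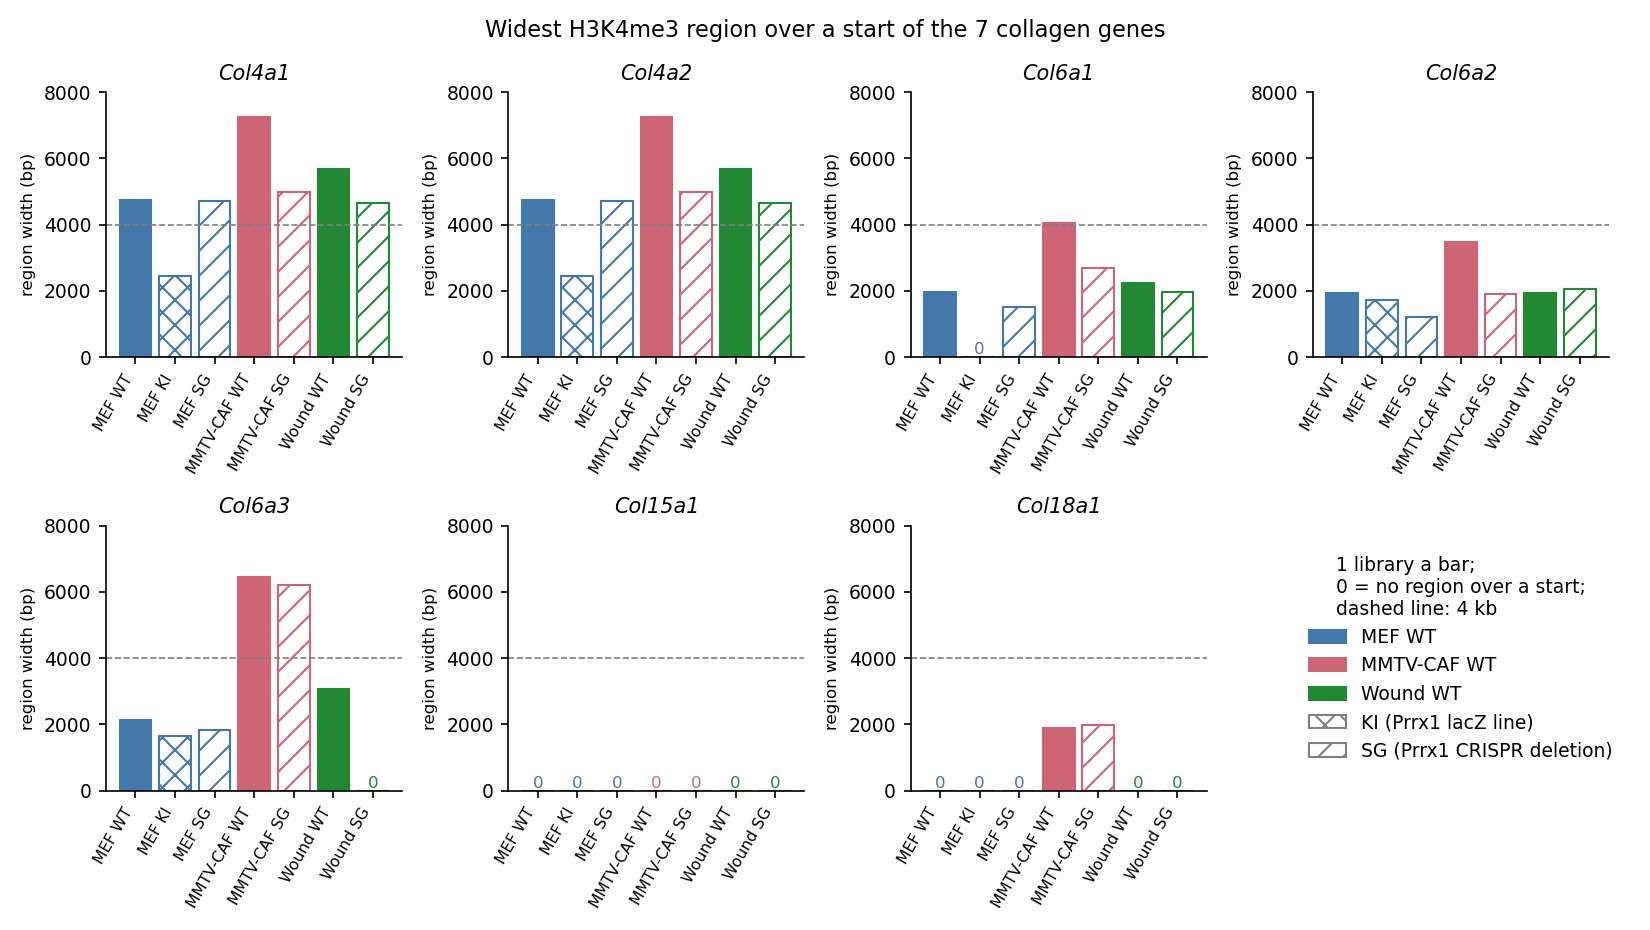
Width in bp of the widest H3K4me3 region over an annotated start (vertical axis, 0 to 8000 bp in every panel) for each of the 7 genes, 1 bar per library, with a dashed line at 4 kb. A 0 means that no region covered a start, as at Col15a1 in all 7 lists and at Col6a3 in Wound SG, and the bars of Col4a1 and Col4a2 show the same shared region.

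Members with an H3K4me3 region over a start numbered 5, 4 and 5 in WT, KI and SG MEF, 6 and 6 in WT and SG MMTV-CAF, and 5 and 4 in Wound WT and SG, against 39.6% (MEF KI) to 54.7% (Wound SG) of all genes. Regions over 4 kb were found at 2, 0, 2, 4, 3, 2 and 2 members in that order. Of all genes with a region, 9.46%, 3.75%, 7.02%, 28.9%, 24.2%, 8.86% and 15.6% had one over 4 kb. Of the 2 in MEF WT, MEF SG and both Wound lists, both were the shared Col4 region. Counting regions within 500 bp of a start as well, the members were 5, 5, 5, 6, 7, 6 and 5, against 54.6%, 49.6%, 53.1%, 53.5%, 53.9%, 56.9% and 57% of all genes.

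Col15a1 (ENSMUSG00000028339.11, chromosome 4, plus strand, 47221033 to 47326039), a multiplexin that anchors basement membranes to the underlying fibrils, had no H3K4me3 region over a start in any of the 7 lists. In MMTV-CAF SG a region of 487 bp began 202 bp inside the start. Its H3K27ac summits numbered 5, 0 and 4 in WT, KI and SG MEF, 6 and 17 in WT and SG MMTV-CAF, and 4 and 3 in Wound WT and SG. The summed score was 63.2, 0 and 109.9 in WT, KI and SG MEF, 81.0 and 314 in WT and SG MMTV-CAF, and 42.7 and 53.5 in Wound WT and SG. MMTV-CAF SG stood above the other 6 lists, and MEF KI held no summit.

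The H3K27ac places of Col15a1 lay far from the start, the nearest at 10.4 kb, with 12 in the gene body and 3 beyond its 3' end. Of 15 places, 8 were in no WT list, and all 8 were listed in MMTV-CAF SG alone. The places shared by all 3 WT lists lay at 76.7, 86.5 and 102 kb, the last beside the 3' end of the gene. At 86.5 kb the −log10 p was 14.4 and 25.001 in MEF WT and SG, 21.4 and 55.8 in WT and SG MMTV-CAF, and 12.6 and 14.8 in Wound WT and SG. At 102 kb it was 9.93 and 56.98 in MEF WT and SG, 8.29 and 54.6 in the MMTV-CAF pair, and 9.15 and 24.3 in Wound. At 76.7 kb it went the other way, from 17.6 to 12.7 in MEF, and from 9.54 in MMTV-CAF WT and 9.15 in Wound WT to no summit in SG. These are values as listed, in lists of unknown depth, and the rise at 86.5 kb in Wound was smaller than that of the median gene.

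Col18a1 (ENSMUSG00000001435.8, chromosome 10, minus strand, 76514923 to 76629293) encodes the precursor of endostatin and has 3 annotated coding starts, which give chains of different N-terminal length. The first is annotated with a coding length of 3945 bases, the next, 52.6 kb into the gene, with 5322 bases, and the last, 77.1 kb in, with a partial model of 485 bases. No list had an H3K4me3 region over the first start. Regions began just inside it in MMTV-CAF WT (964 bp, 31 bp away), Wound WT (1042 bp, 123 bp away) and Wound SG (855 bp, 390 bp away). Over the start at 52.6 kb a region was listed only in MMTV-CAF, with 861 bp in WT and 1994 bp in SG, and likewise over the start at 77.1 kb, with 1906 bp in WT and 1367 bp in SG. The 3 MEF lists had no H3K4me3 region anywhere in the Col18a1 window.

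H3K27ac at Col18a1 was also highest in MMTV-CAF, but it ordered MEF and Wound cells differently from H3K4me3. Its summits numbered 2, 5 and 8 in WT, KI and SG MEF, 10 and 15 in WT and SG MMTV-CAF, and 0 and 3 in Wound WT and SG. The summed score was 16.0, 68.0 and 98.5 in WT, KI and SG MEF, 174 and 339.8 in WT and SG MMTV-CAF, and 0 and 37.2 in Wound WT and SG. The SG or KI list was above WT in all 4 pairs, 2 of which share MEF WT. Of 20 H3K27ac places, 10 were in no WT list and 0 were in all 3 WT lists.

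The place at 68.9 kb was listed everywhere except in Wound WT, with a −log10 p of 6.76, 19.1 and 26.3 in WT, KI and SG MEF, 40.6 and 37.6 in the MMTV-CAF pair, and 11.4 in Wound SG. At the 77.2 kb place, over the last start, it was 19.6 in MEF SG, 48.7 and 52.5 in WT and SG MMTV-CAF, and 13.9 in Wound SG, with no summit in MEF WT, MEF KI or Wound WT. MEF KI differed from MEF SG in where its summits lay: 3 of its 5 were between 14.5 and 18.9 kb, a stretch with 1 summit in MEF SG and none in the other 5 lists. The 3' end of Slc19a1, a folate transporter gene, overlaps that of Col18a1.

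**Figure D4:**
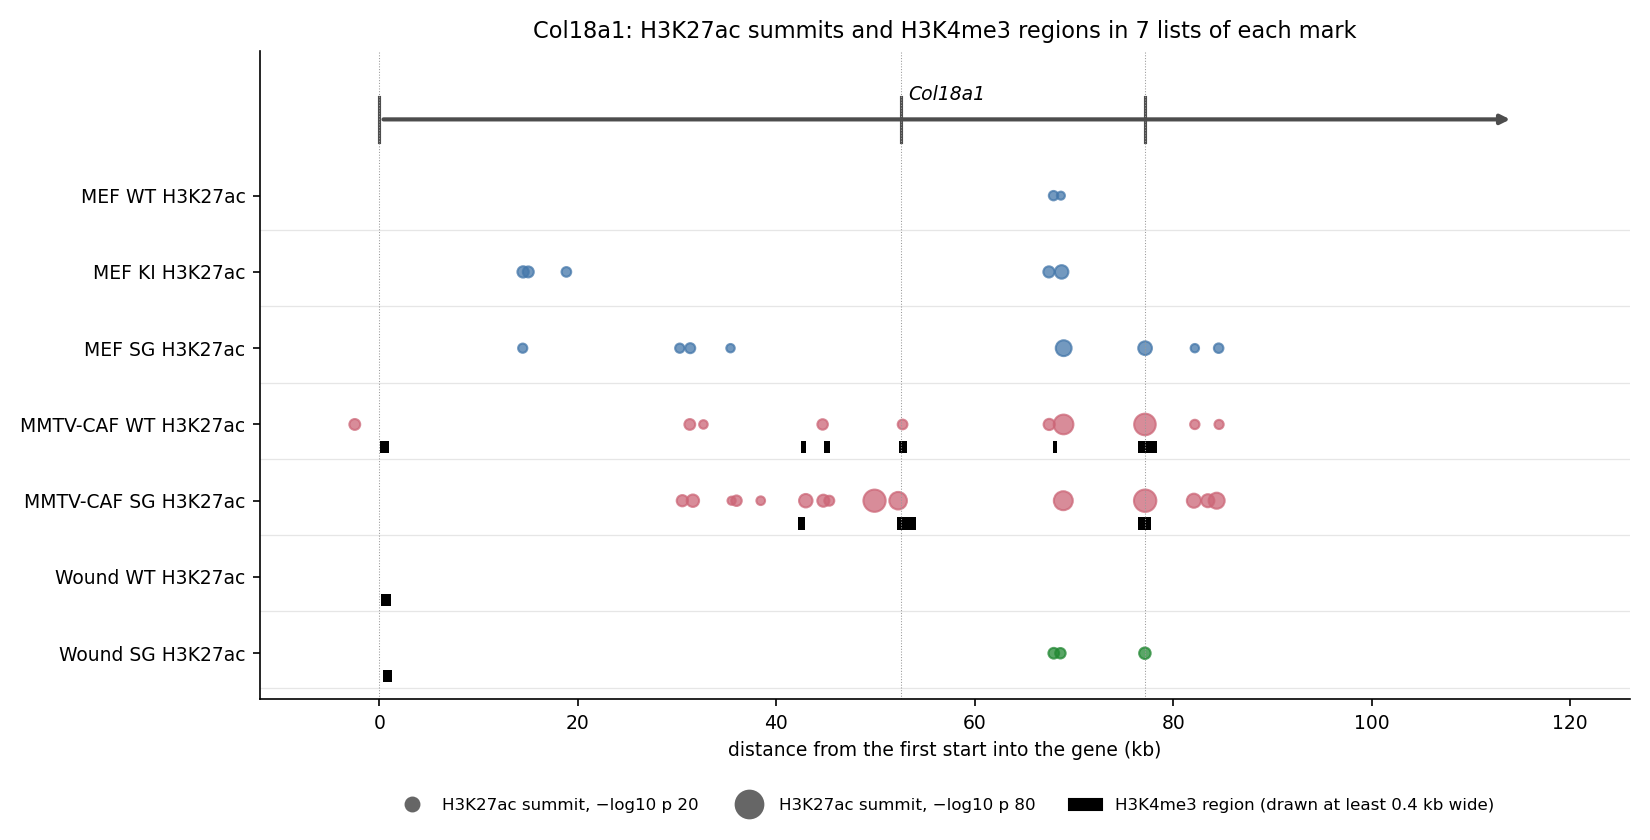
H3K27ac summits (circles, area growing with −log10 p) and H3K4me3 regions (black bars) along Col18a1 in the 7 lists of each mark, as distance in kb from the first start, with vertical ticks at its 3 annotated starts. Bars over the starts at 52.6 and 77.1 kb stand only in the MMTV-CAF rows, and the Wound WT row holds 0 H3K27ac summits.

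Levels could be set side by side between genes only per kb of window. In MEF WT the summed H3K27ac score per kb was 4.03 at Col6a1, 2.57 at Col4a2, 1.83 at Col4a1, 1.24 at Col6a2, 1.10 at Col6a3, 0.505 at Col15a1 and 0.119 at Col18a1. In MMTV-CAF WT it was 4.18, 3.86, 3.52, 1.896, 1.39, 0.648 and 1.30 for the same genes, and in Wound WT 3.30, 2.96, 2.11, 0.509, 0.389, 0.341 and 0. Col6a1, Col4a2, Col4a1, Col6a2 and Col6a3 took the first 5 places in this order in all 3 WT lists, and Col18a1 was last in MEF and Wound but not in MMTV-CAF. Without replicates it cannot be said which neighbours in the order differ.

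The comparison of MEF KI with WT asked which genes changed with the Prrx1 mutation in embryonic cells. Relative to the median gene, which had itself fallen by 1.62 on the log2 scale, H3K27ac was lower by over 2-fold at 2 of 7 members, Col4a1 and Col15a1, against 14.9% of 7462 genes tested, and higher at 1, Col18a1, against 10.8%. Both lower genes had no summit in the KI list, so no fold is given. Col18a1 was 10.7-fold higher (log2 3.41, and 1.18 to 5.57 under the alternatives). Its summed score rose from 16.0 to 68.0 as listed. Without centring 5 members were lower and 1 higher, where 78.5% of all genes tested were lower and 1.31% higher. The other 4 lay between -0.05 (Col6a3) and 0.89 (Col6a1). The median of the members was 0.35, against 0 for all genes by construction. H3K4me3 was narrower by over 1.5-fold at 2 of 4 members tested, Col4a1 and Col4a2 with their 1 shared region (log2 -0.64), against 10.6% of 8770 genes, and wider at 0, against 1.56%. The narrowing fell short of 1.5-fold when bases covered within 5 kb of a start were used (log2 -0.56) or regions within 500 bp of a start were also counted (log2 -0.58). By regions over a start, Col6a1 could not be tested, since MEF KI had none there.

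MEF SG against WT gave a different picture for collagen IV. H3K27ac was lower by over 2-fold at 0 of 6 members tested, against 4.87% of 7777 genes, and higher at 1, Col18a1 (3.70-fold, log2 1.89), against 4.22%. Col4a1 (0.69), Col4a2 (0.52) and Col15a1 (0.34) were above the median gene without passing 2-fold, and Col6a1 (-0.05) and Col6a3 (0.05) were at it. With 50 kb of flank Col18a1 was no longer past 2-fold (log2 0.35). The median of the members was 0.43. H3K4me3 was narrower by over 1.5-fold at 0 of 5 members, against 3.63% of 11233 genes, and wider at 0, against 0.89%. Col6a2, from 1924 to 1204 bp, came closest (log2 -0.58), just inside the limit.

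MMTV-CAF SG against WT left collagens IV and VI near the median gene in H3K27ac, between -0.31 (Col4a1) and 0.16 (Col6a3). It was lower by over 2-fold at 0 of 6 members, against 5.16% of 9470 genes, and higher at 1, Col15a1 (3.13-fold, log2 1.65), against 8.43%. With 50 kb of flank Col15a1 was at 0.94, just under 2-fold. Col18a1 was at 0.70 and the median of the members was 0.11. H3K4me3 was narrower by over 1.5-fold at 1 of 6 members, Col6a2 (1.76-fold, log2 -0.81), against 4.74% of 11297 genes, and wider at 0, against 5.52%. Col6a1 (-0.54) and the Col4 region (-0.49) were also below the median gene, and Col6a3 (0.00) was at it. The value of Col18a1 (0.12) set the regions of 2 different starts against each other.

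In Wound SG against WT, Col4a1, Col6a1 and Col6a3 were lower in H3K27ac relative to the median gene, and none of them by over 2-fold without centring. H3K27ac was lower by over 2-fold relative to the median gene at 3 of 6 members, against 4.02% of 7819 genes, and higher at 1, Col18a1, against 7.76%. The 3 were Col4a1 (2.70-fold, log2 -1.43), Col6a3 (2.73-fold, log2 -1.45) and Col6a1 (2.08-fold, log2 -1.06), and Col4a2, from 463 to 346, fell just short. Col6a2, from 24.4 to 29.4, had too few summits for a ratio. Col15a1 was at -0.29, which turned to 0.30 without centring, and Col18a1, absent from the WT list, is given no fold. The median gene had risen by 0.58 on the log2 scale, and without centring 0 members were lower by over 2-fold and 1 higher, against 0.870% and 22.8% of all genes tested, with Col4a1 at -0.85, Col6a1 at -0.47 and Col6a3 at -0.87. With 50 kb of flank Col6a1 (-0.96), Col6a3 (-0.59) and Col18a1 (0.18) did not pass 2-fold either. The median of the 6 members was -1.03, with 5 of 6 below 0. Col6a3, with an H3K4me3 region of 3060 bp over its start in Wound WT and none in Wound SG, could not be given a width ratio. H3K4me3 was narrower by over 1.5-fold at 0 of 4 members tested, against 3.24% of 11772 genes, and wider at 0, against 5.93%. All 4 were below the median gene, from -0.46 (the Col4 region) to -0.09 (Col6a2).

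**Figure D5:**
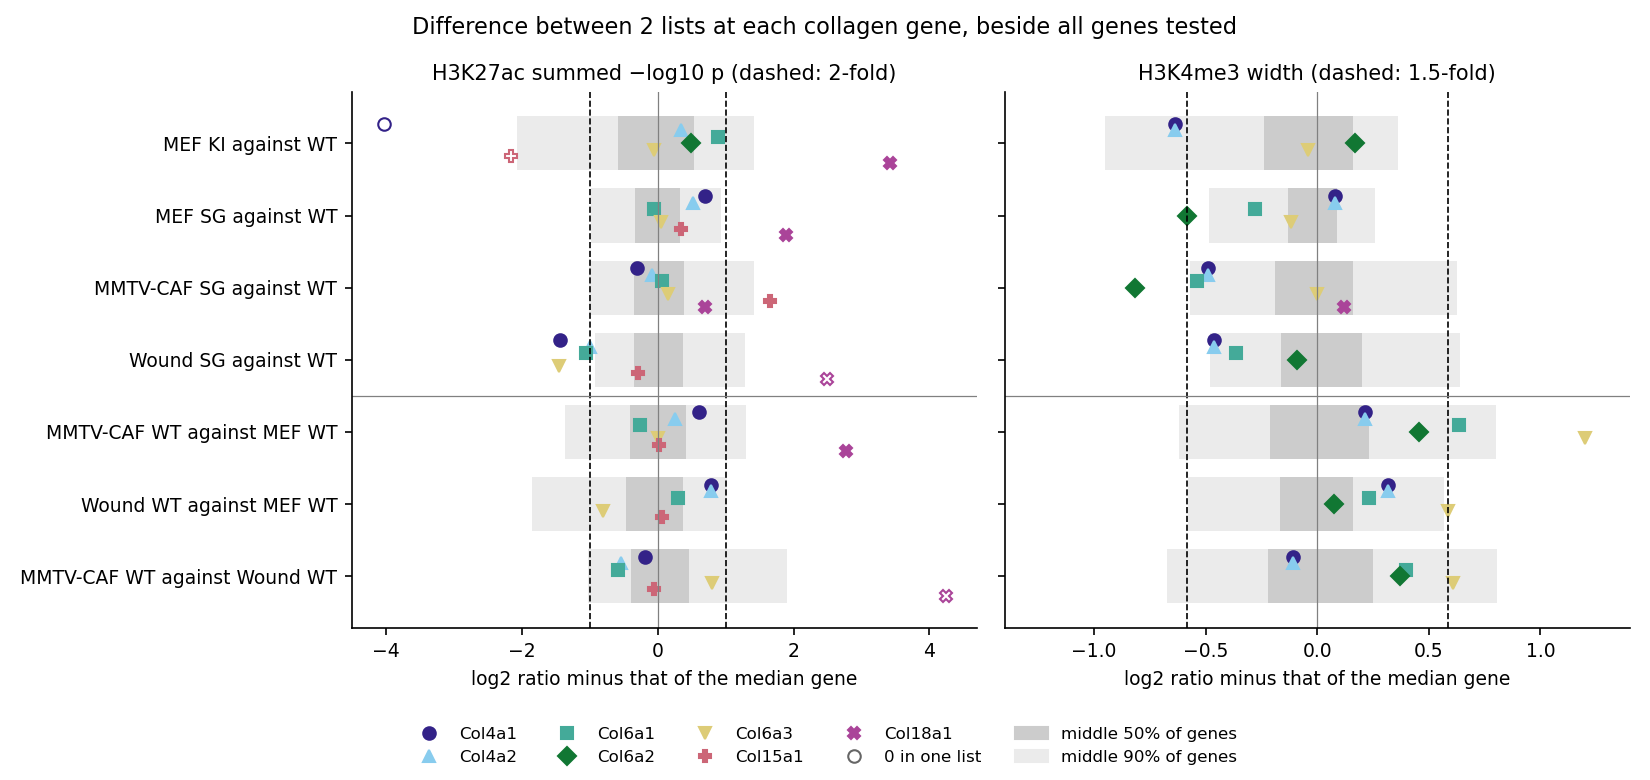
Log2 ratio minus that of the median gene (horizontal axes) for each member in 4 comparisons of KI or SG with WT and 3 comparisons of WT types, for the summed H3K27ac −log10 p (left, dashed lines at 2-fold) and the H3K4me3 width (right, dashed lines at 1.5-fold). Grey bands hold the middle 50% and 90% of all genes tested, and open symbols rest on a list at 0, so that their place depends on the pseudocount. Col18a1 (3.41, 1.89 and 2.77) stands outside both bands in MEF KI, MEF SG and MMTV-CAF against MEF.

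The 4 comparisons of KI or SG with WT did not share a direction for most members. Col4a1 H3K27ac was absent in MEF KI, at 0.69 in MEF SG, at -0.31 in MMTV-CAF SG and at -1.43 in Wound SG. Col15a1 was absent in MEF KI, at 0.34 in MEF SG, at 1.65 in MMTV-CAF SG and at -0.29 in Wound SG. Col18a1 was the member above the median gene in all 4, and past 2-fold in 3. In those 3, MEF KI, MEF SG and Wound SG, its WT list held fewer than the 3 summits that a ratio needs. It was thus tested only through the list in which it was higher, which favours a call upward. The calls in MEF SG and Wound SG did not hold with 50 kb of flank.

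Between WT types, the question was how the collagen genes differ among embryonic, tumour and wound fibroblasts. From MEF to MMTV-CAF, H3K27ac was lower by over 2-fold at 0 of 6 members, against 8.34% of 8700 genes, and higher at 1, Col18a1 (6.83-fold, log2 2.77), against 7.8%. The others lay between -0.27 (Col6a1) and 0.61 (Col4a1). With 50 kb of flank Col18a1 was at 0.63. H3K4me3 was narrower by over 1.5-fold at 0 of 5 members, against 5.56% of 11081 genes, and wider at 2, Col6a3 (2.30-fold, log2 1.20) and Col6a1 (1.55-fold, log2 0.64), against 8.71%. Both calls held under each of the 5 alternatives that gave a value.

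From MEF to Wound, H3K27ac was lower by over 2-fold at 0 of 5 members, against 12.2% of 7660 genes, and higher at 0, against 5.14%. Col4a1 and Col4a2 (0.79 each) were highest and Col6a3 (-0.81) lowest. Without centring 1 member, Col6a3, was lower by over 2-fold and 0 higher, against 27.1% and 1.37% of all genes tested, and this gene passed 2-fold under 4 of 6 alternatives (log2 -1.33 to -1.54). H3K4me3 was narrower at 0 of 5, against 4.83% of 11414 genes, and wider at 1, against 4.71%. This was Col6a3 (1.5004-fold, log2 0.59), at the limit itself. Without centring (0.53) and by bases covered within 5 kb of a start (0.58) Col6a3 was under it.

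From Wound to MMTV-CAF, H3K27ac was lower by over 2-fold at 0 of 6 members, against 5.33% of 8363 genes, and higher at 1, against 11.8%. This was Col18a1, from no summit to a summed score of 174. The others lay between -0.58 (Col6a1) and 0.80 (Col6a3). H3K4me3 was narrower by over 1.5-fold at 0 of 5 members, against 6.29% of 11114 genes, and wider at 1, Col6a3 (1.53-fold, log2 0.61), against 9.08%. By bases covered within 5 kb of a start Col6a3 was under the limit (0.45). The 3 type comparisons share their WT lists, so the Col6a3 and Col18a1 values in them are not independent. Col18a1 met the minimum of 3 summits only through the MMTV-CAF list, which favours a call toward MMTV-CAF.

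The persistence of single H3K27ac summits was then followed, as the share of WT member summits with a summit within 500 bp in the KI or SG list, with Wilson 95% intervals that cover counting error over summits only. In MEF KI it was 38.1% (24.9997 to 53.2%) of 42, against 47.4% over all genes, and in MEF SG 83.3% (69.4 to 91.7%) of 42, against 71.4%. In MMTV-CAF SG it was 67.9% (56.96 to 77.3%) of 78, against 65.9%. In Wound SG it was 49.1% (36.4 to 61.9%) of 55, against 68.1%. Neighbouring summits are not replicates of a genotype and most come from the linked Col4 pair, so the intervals test nothing about it. In MEF KI, Col4a1 and Col15a1 add 9 and 5 summits that could have no counterpart, since that list held none in either window. In Wound SG, 6 of 17 Col4a1 summits (35.3%) had one. Summits in the shared stretch of the Col4 pair count once for each gene and once in the total.

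Over all 7 lists the members held 115 H3K27ac places, of which 62 were at the Col4 pair, 20 at Col18a1, 15 at Col15a1, 8 at Col6a3, 7 at Col6a1 and 3 at Col6a2. By WT list, 26 were found in all 3 types, 30 in MMTV-CAF alone, 3 in MEF alone, 4 in Wound alone and 29 in none. Over all 74643 places in the windows of protein-coding genes, members included, the shares were 21.2%, 19.3%, 8.62%, 5.41% and 30.4%, against 22.6%, 26.1%, 2.61%, 3.48% and 25.2% of the member places. MMTV-CAF also had the longest WT list, and places of 1 gene are not independent. A PRRX1 summit of any type lay within 500 bp of 13 places, 11 at the Col4 pair and 2 at Col6a1. The same share over all 74643 places was not computed, so these 13 cannot be called many or few.

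Stitching neighbouring summits into clusters and ranking them by summed score, in the manner of super-enhancer calling but without reads, placed Col4a2 in a super-enhancer-like cluster in all 7 lists, from rank 92 of 13901 clusters in Wound WT to rank 374 of 18313 in MEF WT. Col4a1 was in such a cluster in 5 lists, but in MEF SG this was the Col4a2 cluster (rank 225), which lies inside Col4a2, reaches Col4a1 only through its flank and is counted for both genes. In MEF KI it had no cluster, and in Wound SG its best cluster ranked 3001. Col6a2 was in such a cluster in the 3 MEF and 2 MMTV-CAF lists, in a cluster that reaches 27.7 kb in MEF WT and lies mainly upstream of the gene, beyond its 10 kb flank. Col6a1 was in such a cluster in MEF KI only (rank 581) and Col15a1 in MMTV-CAF SG only (rank 832). Col6a3 and Col18a1 were in none. In total 3, 3 and 3 members in WT, KI and SG MEF, 3 and 4 in the MMTV-CAF pair and 2 and 1 in Wound were in such a cluster, against 10.4%, 4.05%, 11.4%, 10.8%, 10.4%, 7.38% and 11.9% of all genes.

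Other genes of collagen assembly and of the basement membrane did not move as a block in H3K27ac. The list held 43 genes, of which 42 were matched: other collagen IV and VI chains, laminins and their partners, modifying and crosslinking enzymes, and receptors. In MEF KI against WT 6 of 33 tested were lower and 3 higher, close to the 14.9% and 10.8% of all genes, with Nid2, a nidogen that links laminin to collagen IV, lowest (summed score 202 to 9.001) and the laminin chain gene Lama4 highest (23.6 to 26.9 against a falling median). In MEF SG 2 of 33 were lower and 1 higher, against 4.87% and 4.22% of all genes, with Lama4 lowest (23.6 to no summit) and Pxdn, whose enzyme crosslinks collagen IV, highest (59.98 to 169). MEF KI and MEF SG thus put Lama4 at opposite ends. In MMTV-CAF SG 2 of 34 were lower and 2 higher, against 5.16% and 8.43%, with the nidogen Nid1 lowest (91.9 to 38.6) and Col6a5, a further collagen VI chain, highest (no summit to 76.3). In Wound SG 4 of 31 were lower and 3 higher, against 4.02% and 7.76%, with the fibulin genes Fbln2 lowest (329 to 116) and Fbln1 highest (no summit to 41.1).

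Between types the same list gave 4 of 35 lower and 1 higher from MEF to MMTV-CAF, against 8.34% and 7.8% of all genes, with Nid2 lowest (202 to no summit) and Fbln1 highest (46.9 to 144). From MEF to Wound 7 of 32 were lower and 0 higher, against 12.2% and 5.14%, with Fbln1 lowest (46.9 to no summit). From Wound to MMTV-CAF 4 of 31 were lower and 5 higher, against 5.33% and 11.8%, with Fbln2 lowest (329 to 185) and Fbln1 highest (no summit to 144). Nid2, Fbln1 and Fbln2 were thus at the ends of these comparisons.

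For H3K4me3 width in the same list, only genes with a region over a start in both lists were tested. Counts and ranks thus leave out genes that gained or lost a region. Nid2 (2977 bp in MEF WT) had none in MEF KI, and Lama4 (1873 bp in MEF WT) had none in MEF KI or MEF SG. In MEF KI 7 of 26 genes tested were narrower and 0 wider, with the laminin chain gene Lamb2 lowest of these (2431 to 622 bp). In MEF SG 6 of 32 tested were narrower and 0 wider, with the laminin chain gene Lama5 lowest of these (1087 to 391 bp). In MMTV-CAF SG 6 of 34 were narrower and 3 wider, with Itga2, a collagen receptor integrin, lowest (861 to 290 bp) and Col4a6, a further collagen IV chain, highest (1354 to 6783 bp). The 6783 bp value was the same for Col4a5, its head-to-head neighbour, so that 2 of the 3 wider genes shared 1 region. The shares over all genes, narrower and wider, were 10.6% and 1.56% for MEF KI, 3.63% and 0.89% for MEF SG and 4.74% and 5.52% in MMTV-CAF SG. Narrowing thus outnumbered widening in the list in all 3 comparisons, and over all genes in both MEF comparisons. In Wound SG 2 of 32 tested were narrower and 4 wider, against 3.24% and 5.93% of all genes. Of these 32 the proteoglycan gene Cspg4, whose product binds collagen VI, was lowest (2930 to 726 bp) and Itga2 highest (484 to 1428 bp).

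Between types, too, width was compared and ranked only at genes with a region over a start in both lists. This left out Lama4 from MEF to Wound (1873 bp to no region) and Col4a6 from Wound to MMTV-CAF (no region to 1354 bp), among others. From MEF to MMTV-CAF 3 of 34 were narrower and 6 wider, against 5.56% and 8.71% of all genes. Nid2 was lowest (2977 to 1002 bp) and Loxl2, a lysyl oxidase that crosslinks collagen IV, highest (1297 to 6254 bp). From MEF to Wound 4 of 32 were narrower and 3 wider, against 4.83% and 4.71%, with the lysyl hydroxylase gene Plod2 lowest (4597 to 2286 bp) and Loxl2 highest (1297 to 2709 bp). From Wound to MMTV-CAF 4 of 32 tested were narrower and 9 wider, against 6.29% and 9.08%. Of these 32 the basement membrane proteoglycan gene Agrn was lowest (4703 to 2303 bp) and Plod2 highest (2286 to 8578 bp). Loxl2 was thus highest in both comparisons that start from MEF, which share the MEF WT list.

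The members differed from each other in their H3K27ac pattern over the 7 lists. On the log2 share of each list, Pearson's r was 0.849 for Col4a1 and Col15a1, which are both at 0 in MEF KI, and 0.851 for Col6a2 and Col6a3, and the nearest member to Col18a1 was Col6a2 at 0.514. Col4a2 was nearest to Col6a1, at 0.554, and not to Col4a1 with which it shares a promoter. Of 1332 genes on other chromosomes with at least 10 summits in some list, the 5 most like the mean of the 7 members were Plxdc1 (r = 0.958), A630055G03Rik (0.927), Slc23a2 (0.924), Stac2 (0.906) and Fnbp1 (0.903). These values describe 7 lists that differ in length and carry no test.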

How the data were processed

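ChIP-seq peak lists of 17 of the 24 samples were used, grouped by sample title, and inputs were not used here. Per the study's methods and the labels, the authors used Trimmomatic on the reads, Bowtie with mm9 for alignment, a duplicate filter, and MACS2 with input to call peaks. In the deposited files H3K27ac and PRRX1 are given as 1 bp positions, each with its −log10 p, without width. H3K4me3 is deposited as regions with a fold over input, a −log10 p and a score that the authors' caller derived from the q-value and that was not used. H3K27ac summits started at a −log10 p of 5.00 and PRRX1 summits at 3.00, below the cutoff that the methods give for sharp peaks. Whether the PRRX1 lists pool duplicate ChIPs is not given in the sources used here. Library depth is unknown.

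Genes were those of GENCODE vM1 on NCBIM37, the same build as mm9, and 0 intervals lay beyond a chromosome end. Summed −log10 p in the body with 10 kb flanks, plus a pseudocount of 5, gave a log2 ratio, and the median over genes with at least 3 summits in either list was subtracted. H3K4me3 ratios used the widest region over a coding start and needed such a region in both lists. Summits within 12.5 kb were stitched into clusters, and those above the point where the ranked curve has the slope of its diagonal were called super-enhancer-like. A gene was called past 2-fold (H3K27ac) or 1.5-fold (H3K4me3). The calculations were tested on simulated data. Python 3.11.15, numpy 2.4.6, scipy 1.17.1 and matplotlib 3.10.9 were used.

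The members, marker and pathway lists, alternatives and limits were chosen with earlier results of these data known. All 7 members are named, and of the pathway list the lowest and highest gene past the limit per comparison. Alternatives were no centring, 50 kb flanks, a −log10 p of at least 10, lists of equal size, numbers of summits, no filter on low values, bases covered within 5 kb of a start, other distances to a counterpart and PRRX1 scores of at least 5 or 10. Regions within 500 bp of a start were added after seeing the data.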

Additional observations from a re-analysis of the deposited data

Results flagged for a closer look

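The change in Col15a1 H3K27ac in Prrx1-altered cells, KI (a lacZ insertion) or SG (deletion), went in opposite directions in 2 comparisons. It was higher than the median gene in MMTV-CAF SG against WT (summed score 81.0 to 314) and lower in MEF KI against WT (63.2 to no summit), a difference of 3.80 between the 2 log2 ratios. The difference was not tested, each side rests on 1 library per group, and its size depends on the pseudocount because the MEF KI list is at 0. MEF SG, the deleted MEF list, had 109.9 at this gene.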

How the results depend on the processing

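Across 97 alternative values for the answers to the comparisons, 62 stayed within 1.5 times the reported count or inside its interval, and 35 moved. These counts add lower and higher members, so a change of direction would not show in them. Of single members, 215 of 243 H3K27ac and 146 of 161 H3K4me3 values kept their side of the limit. Of 11 H3K27ac and 7 H3K4me3 calls, 4 and 3 held under every alternative that gave a value. The 4 were Col4a1, Col15a1 and Col18a1 in MEF KI, and Col18a1 in MMTV-CAF against Wound. All but Col18a1 in MEF KI rest on a list at 0, and that call on a WT summed score of 16.0. The causes of the changes below were not tested. Without centring, members past 2-fold in H3K27ac numbered 6 (MEF KI), 2 (MEF SG), 1 (Wound SG), 1 (Wound against MEF) and 2 (MMTV-CAF against Wound). Of all genes tested, 2.31% were lower and 11.9% higher in MEF SG, and 1.10% and 44.1% in MMTV-CAF against Wound. Members past 1.5-fold in H3K4me3 width numbered 1 (MEF SG), 2 (MMTV-CAF SG), 5 (MMTV-CAF against MEF), 0 (Wound against MEF) and 3 (MMTV-CAF against Wound). The median gene itself was wider by 0.40 (log2) in MMTV-CAF against MEF and 0.46 in MMTV-CAF against Wound. For H3K4me3 width and the member counts below, the share over all genes is not given. With 50 kb flanks the H3K27ac counts were 0 (MEF SG), 0 (MMTV-CAF SG), 0 (MMTV-CAF against MEF), 1 (Wound against MEF) and 2 (MMTV-CAF against Wound). In lists of equal size they were 2 (MMTV-CAF SG), 2 (Wound SG), 0 (MMTV-CAF against MEF) and 1 (Wound against MEF). By number of summits MMTV-CAF against MEF gave 2, and with no filter Wound against MEF gave 1. At a −log10 p of at least 10, H3K27ac gave 1 (Wound against MEF) and 2 (MMTV-CAF against Wound), and H3K4me3 gave 1 (MEF SG), 0 (Wound against MEF) and 0 (MMTV-CAF against Wound). For MEF KI that H3K4me3 alternative gave no value, since no member had a region in both lists. Bases within 5 kb of a start gave 0 in MEF KI and 0 in Wound against MEF, and regions within 500 bp of a start gave 0 in MEF KI. PRRX1 summits at members in MMTV-CAF numbered 6 at a −log10 p of at least 5 and 4 at 10, and in Wound 1 at 10. The share of WT summits with a counterpart was 92.9% in MEF SG within 1 kb (83.2% over all genes), and within 250 bp 53.8% in MMTV-CAF SG (57.2%) and 36.4% in Wound SG (57.6%). No paired analysis was possible because every group has 1 library and the labels carry no replicate numbers. The unknown depth limits every statement that a summit or region is absent to not listed.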
